A study of Mus musculus with 2 samples.

Results

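The SOX genes described here are Sox1, Sox2, Sox3, Sox4, Sox7, Sox11, Sox17, Sox18 and Sox21, chosen by symbol, together with the accessibility peaks within 50000 bp of their starts. They are 9 of the 32285 genes and 174 of the 229480 peaks measured. The number of nearby peaks was 18 for Sox1, 25 for Sox2, 12 for Sox3, 24 for Sox21, 21 for Sox4, 17 for Sox11, 16 for Sox7, 19 for Sox17 and 22 for Sox18.

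Nuclear RNA and open chromatin were measured in the same nuclei of mouse embryos at E7.0, a stage of gastrulation, with a droplet multiome assay. Embryos were pooled and dissociated with TrypLE before nuclei were isolated, and no treatment, genotype contrast or number of embryos is named in the labels. The 2 samples come from 1 pool of nuclei, 1 per assay, so there was no replicate. Every interval below therefore covers counting error only, and no test was possible. The labels conflict: title, age and protocol give E7.0 embryos, whereas other fields name goblet cells, the 8th section of the small intestine for RNA, the distal colon for accessibility, and a strain called RedMUC298trTg. The 8 goblet and intestinal genes examined, Muc2 among them, together held 7.66 UMIs per 1000000 UMIs (CPM) in the epiblast-like class defined below and 96.6 CPM in the visceral endoderm-like class. In all 10 named classes, the decidua list lay between 1.38 and 43.4 CPM and the immune list between 1.33 and 5.96 CPM.

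Of 15341 barcodes, 12796 (83.4%) were kept, with a median of 10471 UMIs, 4221 genes and 17350 peak counts per nucleus. No barcode was repeated. Nuclei were grouped by accessibility into 19 clusters without any of the 174 peaks near the SOX genes, and clusters were named from marker RNA that held no SOX gene, so neither measure of the 9 genes defined a class. The named classes were epiblast-like (3054 nuclei), primitive streak-like (989), primordial germ cell-like (175), embryonic mesoderm-like (1536), haemato-endothelial progenitor-like (677), anterior streak, node and definitive endoderm-like (985, called anterior streak-like from here), visceral endoderm-like (1716), parietal endoderm-like (294), extraembryonic ectoderm-like (1450) and ectoplacental cone and giant cell-like (181). Another 1739 nuclei in 4 clusters stayed unnamed. Median UMIs in the named classes ran from 9844 to 14292. Haemoglobin genes, Hbb-bs among them, were among the leading genes of the ectoplacental cone-like class beside the placental prolactin Prl3d1, and the extraembryonic mesoderm list came second in the haemato-endothelial class. The primordial germ cell-like class held its own marker list at 135 CPM, against 30.5 in all other nuclei. It also held the primitive streak list at 823 against 408 CPM and the embryonic mesoderm list at 691 against 300 CPM.

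SOX proteins bind the minor groove of DNA through a high-mobility-group domain related to that of SRY and bend the helix, often beside a partner factor. The family is divided into groups by sequence: SOXB1 (Sox1, Sox2, Sox3) holds activators linked to pluripotency and neural fate, SOXB2 holds Sox21, often described as a repressor acting against SOXB1, SOXC holds Sox4 and Sox11, and SOXF holds Sox7, Sox17 and Sox18. In the mouse gastrula Sox2 is known for its roles in the epiblast and in trophoblast stem cells, Sox17 for definitive and extraembryonic endoderm, and the SOXF group for endothelial and blood progenitors.

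The RefSeq table of promoters (build GRCm38.p6) held 5 of the 9 genes, and the 250 bases before the RefSeq start are shown for Sox2, Sox4, Sox11 and Sox21 because each of these windows overlaps 1 accessibility peak, for which levels are given below. Short sequences were searched on both strands in windows of 300 bases, and capitals mark each match: CCAAT (reverse ATTGG), the SOX core sequences ACAAT and ACAAAG, the TATA sequence TATAAA, and the octamer ATGCAAAT bound by POU factors. Each sequence runs 5′ to 3′ on the gene's own strand.
Sox2, chr3:34649745-34649994, plus strand: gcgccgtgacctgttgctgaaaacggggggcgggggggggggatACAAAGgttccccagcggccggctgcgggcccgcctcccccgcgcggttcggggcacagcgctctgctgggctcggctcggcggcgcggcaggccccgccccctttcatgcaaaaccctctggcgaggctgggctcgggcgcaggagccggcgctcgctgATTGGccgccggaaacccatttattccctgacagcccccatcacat
Sox4, chr13:28953700-28953949, minus strand: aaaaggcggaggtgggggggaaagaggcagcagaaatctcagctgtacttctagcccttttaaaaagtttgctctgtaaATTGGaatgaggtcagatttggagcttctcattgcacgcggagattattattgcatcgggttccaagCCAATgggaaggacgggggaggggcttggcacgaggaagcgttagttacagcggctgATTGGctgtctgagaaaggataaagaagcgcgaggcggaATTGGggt
Sox11, chr12:27342719-27342968, minus strand: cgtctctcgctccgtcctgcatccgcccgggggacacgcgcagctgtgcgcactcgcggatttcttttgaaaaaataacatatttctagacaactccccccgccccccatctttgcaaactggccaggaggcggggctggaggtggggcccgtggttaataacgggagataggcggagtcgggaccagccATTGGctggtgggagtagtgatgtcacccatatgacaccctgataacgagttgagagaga
Sox21, chr14:118237031-118237280, minus strand: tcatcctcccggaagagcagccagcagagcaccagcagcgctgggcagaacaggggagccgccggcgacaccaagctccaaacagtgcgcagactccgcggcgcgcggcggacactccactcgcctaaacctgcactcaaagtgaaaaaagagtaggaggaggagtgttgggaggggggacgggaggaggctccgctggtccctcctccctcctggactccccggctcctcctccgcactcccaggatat

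CCAAT was found in the windows of Sox1, Sox2, Sox4 and Sox11, and in 37.4% of all 32851 promoters. The Sox2 window held ACAAAG 206 bases before the start, a sequence in 18.7% of all promoters. The Sox1 window is not shown, since most of it lies after the start in the deposited annotation. It held the octamer, which is in 1.74% of all promoters. No member window held ACAAT (31.02% of promoters) or TATAAA (13.6%), and the Sox21 window held none of the sequences searched. GC content was 70.7% for Sox1, 66.3% for Sox2, 65.7% for Sox21, 58.7% for Sox11 and 52.00% for Sox4, beside a median of 52.7% over all promoters.

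RNA is given as CPM, the UMIs per 1000000 UMIs of a class, with the exact Poisson 95% interval, and a fold compares a class with all other kept nuclei. A fold of at least 2 either way, in genes with at least 50 UMIs, is called higher or lower. CPM is not corrected for gene length, so levels are compared between classes and not between genes. All but Sox1 passed the minimum of 50 UMIs. Background RNA shared between droplets was not estimated. The visceral endoderm marker list was at 611 to 893 CPM in the named classes outside visceral and parietal endoderm. Whether low SOX levels in a class are expression in its nuclei was not tested.

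**Figure D1:**
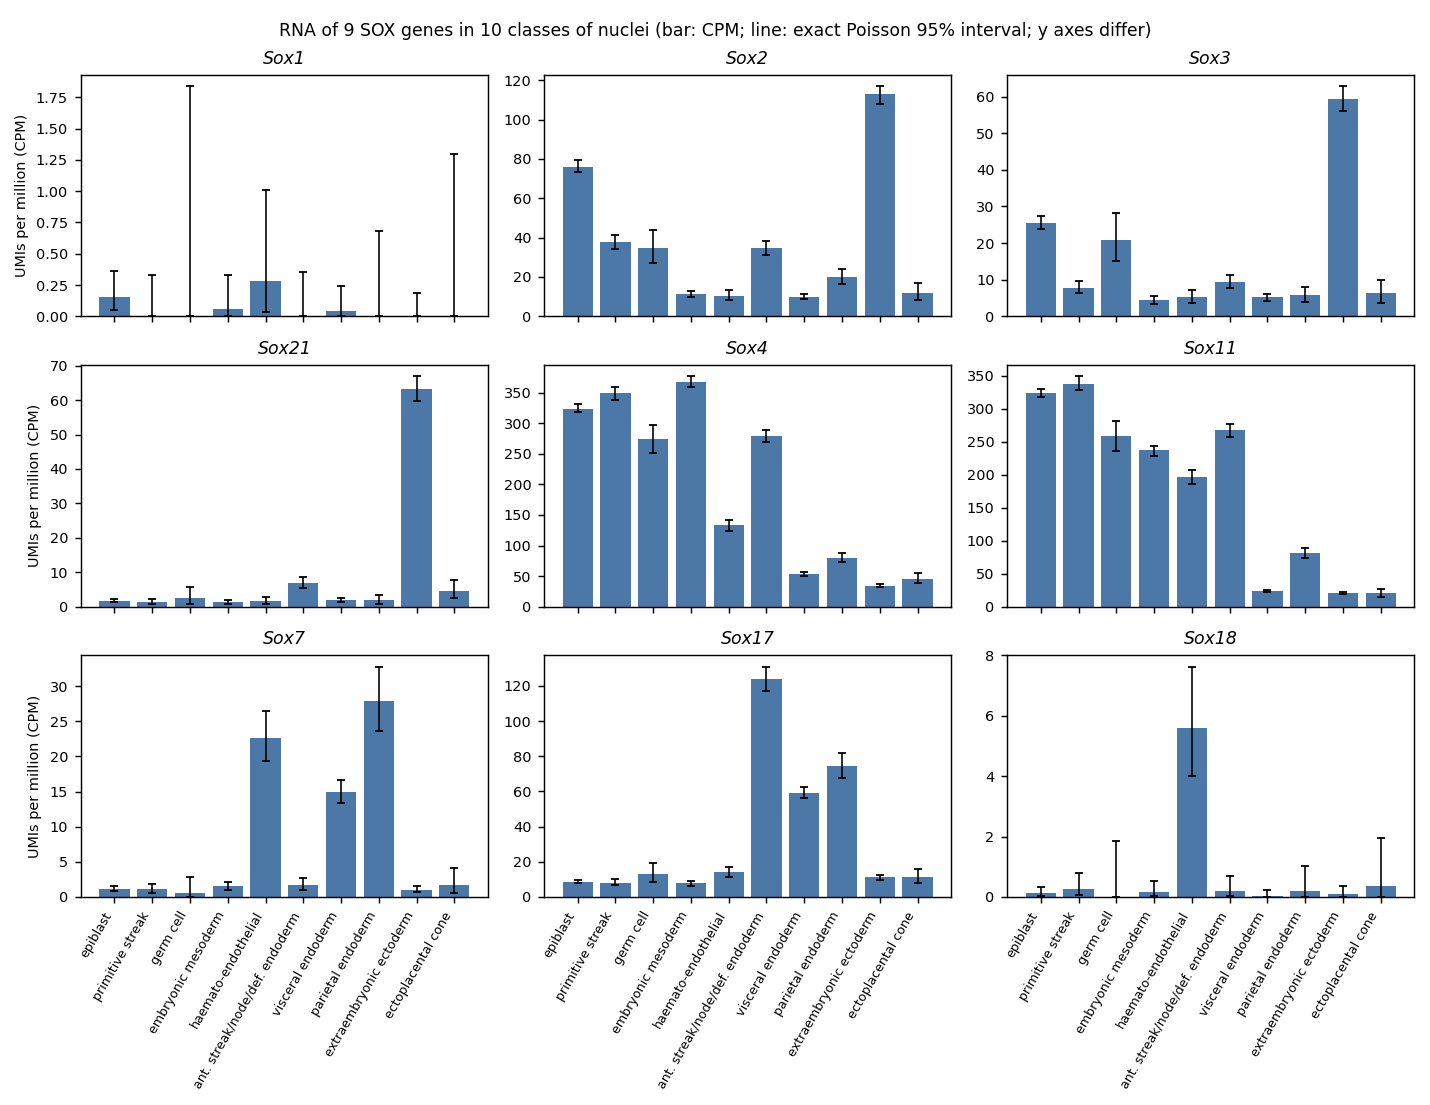
RNA of the 9 SOX genes in 10 classes of nuclei; each bar is UMIs per 1000000 UMIs of the class (CPM, linear axis from 0, scales differ between panels) and each line the exact Poisson 95% interval. Sox2, Sox3 and Sox21 have their highest bars in the extraembryonic ectoderm-like class (113, 59.4 and 63.3 CPM), Sox17 in the anterior streak-like class (124 CPM), and Sox18 in the haemato-endothelial class (5.61 CPM).

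All 3 of Sox2, Sox3 and Sox21 were highest in the extraembryonic ectoderm-like class, the trophoblast tissue next to the epiblast. Sox2, which maintains pluripotent and trophoblast stem cells, reached 113 CPM there (95% interval 108 to 117), against 35.7 in all other nuclei, a fold of 3.15 (2.99 to 3.32). The epiblast-like class came next at 76.1 CPM (73.1 to 79.2). The primitive streak-like, primordial germ cell-like and anterior streak-like classes followed at 37.7, 34.9 and 34.5 CPM, with overlapping intervals. The parietal endoderm-like class had 19.9 CPM, and the remaining 4 classes lay between 9.97 and 11.96 CPM with overlapping intervals. The epiblast fold of 2.03 (1.93 to 2.13) sits at the threshold: with the other 6 ways of defining the classes it was between 1.58 and 1.96, so the call was lost in each.

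Shares of nuclei with a UMI were compared in 3 of the classes. After each nucleus was thinned to 5000 UMIs, leaving 1313, 2692 and 1610 nuclei, a Sox2 UMI was found in 35.7% of extraembryonic ectoderm-like nuclei (33.1 to 38.4), 30.1% of epiblast-like and 4.35% of visceral endoderm-like nuclei, the last a lineage not known for Sox2. Without thinning the shares were 56.8%, 45.9% and 11.5%, at median depths of 12218, 9876 and 12389 UMIs. Reads of Sox2ot, a long noncoding RNA in whose body Sox2 lies, were counted separately (4103 UMIs) and had another order: 94.6 CPM in the primitive streak-like class, 43.03 in the epiblast-like class and 12.3 in the extraembryonic ectoderm-like class.

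Sox3, the X-linked SOXB1 gene, was at 59.4 CPM in the extraembryonic ectoderm-like class (56.01 to 62.9), a fold of 4.60 (4.27 to 4.97), and at 25.5 CPM (23.8 to 27.3) in the epiblast-like class, a fold of 1.47. The primordial germ cell-like class had 20.9 CPM (15.1 to 28.3), which overlaps the epiblast interval. The other 7 classes lay between 4.37 CPM in embryonic mesoderm and 9.38 CPM in the anterior streak. In thinned nuclei the share with a Sox3 UMI was 18.96% in extraembryonic ectoderm, 11.03% in epiblast and 2.30% in visceral endoderm.

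Sox21, the SOXB2 gene, was the member with the sharpest contrast of this set of 3. It had 63.3 CPM (59.8 to 66.9) in the extraembryonic ectoderm-like class against 2.47 in all other nuclei, a fold of 25.7 (22.6 to 29.2). The anterior streak-like class came second at 6.77 CPM (5.27 to 8.55), whose interval overlaps that of the ectoplacental cone-like class at 4.57 CPM (2.43 to 7.82). The other 7 classes lay between 1.30 and 2.49 CPM. In thinned nuclei a Sox21 UMI was found in 24.5% (22.2 to 26.9) of extraembryonic ectoderm-like, 2.28% of anterior streak-like and 0.632% of epiblast-like nuclei. With doublet calls kept, the ectoplacental cone-like class held 679 nuclei in place of 181 and had 25.5 CPM of Sox21, a fold of 2.53, and the extraembryonic ectoderm fold was 14.7.

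Sox1, a marker of neural plate that is switched on after this stage, had 10 UMIs in 10 of the 12796 nuclei. Of these, 5 were in the epiblast-like class, 2 in the haemato-endothelial class and 1 each in the embryonic mesoderm-like and visceral endoderm-like classes, so no order can be read. Its overlapping long noncoding RNA Sox1ot had 124 UMIs, 54 of them in the epiblast-like class (1.68 CPM).

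The SOXC genes Sox4 and Sox11, regulators of progenitor survival and differentiation in many tissues, were lower by the 2-fold rule in visceral and parietal endoderm and in both trophoblast classes. Sox4 was called higher in no class and Sox11 only in the epiblast. Sox4 was at 368 CPM (359 to 377) in the embryonic mesoderm-like class and at 349 (338 to 360) in the primitive streak-like class, with overlapping intervals. It was at 324 CPM in the epiblast-like, 279 in the anterior streak-like and 274 in the primordial germ cell-like class, and at 133 in the haemato-endothelial class. The parietal endoderm-like, visceral endoderm-like, ectoplacental cone-like and extraembryonic ectoderm-like classes had 79.99, 52.9, 45.7 and 34.4 CPM, and the last was 7.32 times lower than all other nuclei.

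Sox11 was at 338 CPM (328 to 349) in the primitive streak-like class and at 324 (318 to 330) in the epiblast-like class, with overlapping intervals, followed by the anterior streak (267), primordial germ cell (258), embryonic mesoderm (237) and haemato-endothelial (196) classes. It was at 80.7 CPM in parietal endoderm, 23.6 in visceral endoderm, 20.5 in extraembryonic ectoderm and 20.05 in the ectoplacental cone. The extraembryonic ectoderm level was 10.2 times lower than that of all other nuclei. The epiblast fold was 2.24 (2.18 to 2.29), and 1.93 at clustering resolution 2. Between embryonic mesoderm and the haemato-endothelial class the pair differed: Sox4 was at 368 and 133 CPM and Sox11 at 237 and 196.

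The SOXF genes were each high in a different set of classes. Sox17, a driver of endoderm fate, was at 124 CPM (117 to 131) in the anterior streak-like class, at 74.5 (67.4 to 82.1) in the parietal endoderm-like class and at 59.3 (56.2 to 62.5) in the visceral endoderm-like class. The folds were 4.70 (4.40 to 5.01), 2.35 (2.12 to 2.61) and 2.09 (1.96 to 2.23). With RNA clusters as classes, the anterior streak class was 405 nuclei with a fold of 10.5 and the parietal endoderm fold was 3.71, and the parietal fold reached 8.26 where that class was 32 nuclei. In those 32 nuclei Sox17 was at 270 CPM, above the anterior streak-like class taken whole. An RNA cluster within the anterior streak-like class, described below, had 273 CPM. Which class was highest therefore depends on how both classes are drawn. The visceral endoderm fold was 1.55 with doublet calls kept and 1.93 at resolution 0.5. The other 7 classes lay between 7.73 CPM in embryonic mesoderm and 14.2 CPM (11.5 to 17.2) in the haemato-endothelial class. Thinned shares of nuclei with a Sox17 UMI were 29.1% in the anterior streak, 28.5% in parietal endoderm, 23.1% in visceral endoderm and 4.75% in the epiblast.

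Sox7, which acts in primitive endoderm and in early haemangioblasts, was high in 3 classes: parietal endoderm-like at 27.9 CPM (23.7 to 32.8), haemato-endothelial at 22.7 (19.3 to 26.5) and visceral endoderm-like at 14.97 (13.4 to 16.6). The intervals of the first and the second overlap. Every other named class lay between 0.499 and 1.76 CPM, including the anterior streak-like class with its 124 CPM of Sox17 (Sox7 1.74 CPM).

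Sox18, a regulator of vascular development, was highest in the haemato-endothelial class, with 40 of its 60 UMIs there. That is 5.61 CPM (4.01 to 7.63) against 0.144 in all other nuclei, a fold of 38.8 (22.2 to 70.1). Each other named class held between 0 and 4 UMIs, and an unnamed cluster of 182 nuclei had 2 (1.37 CPM, 0.166 to 4.94). A Sox18 UMI was found in 29 of the 677 nuclei (4.28%), against 0.131% in the epiblast-like class, at median depths of 10058 and 9876 UMIs. Sox7 and Sox18 therefore shared this class, while Sox17 stood at 14.2 CPM in it, 2.42 times below all other nuclei.

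The parietal endoderm-like values depend on where that class is drawn. It held the visceral endoderm marker list at 6710 CPM, against 3399 in all other nuclei, beside its own list at 4665 against 581. The visceral endoderm-like class held the parietal endoderm list at 1415 against 605 CPM. Of the 294 nuclei of the parietal endoderm-like class, 141 also fell in the parietal endoderm-like cluster of an RNA clustering. These had 53.9 CPM of Sox7 (43.8 to 65.5) and 123 of Sox17. Another 63, with a median of 27572 UMIs, fell in an unnamed RNA cluster and had 7.92 CPM of Sox7, 25.6 of Sox17 and 29.8 of Sox2. At resolution 0.5, at resolution 2 and with the nearby peaks kept in the clustering, the class was 32 nuclei with 202 CPM of Sox7 (160 to 252) and 270 of Sox17 (220 to 327), and those 32 nuclei hold 78 of the 152 Sox7 UMIs of the larger class.

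The share of tested members called lower was above that of all genes in all 10 named classes. The other nuclei of each fold include classes where a member was high, which favours lower calls for class-restricted genes such as Sox21. Members were also chosen with earlier results of these data known. The excess of lower calls is therefore not read as a property of the set. The share called higher was above that of all genes in 6 of the 10 classes. Among these, the anterior streak count of 1 is near the background, and the epiblast and visceral endoderm counts of 2 each fell with other ways of defining the classes. In extraembryonic ectoderm 3 of the 8 tested members were higher (background 7.01%) and 5 were lower (background 25.3%). In the epiblast 2 were higher (background 8.15%) and 4 lower (12.6%), in the haemato-endothelial class 2 higher (6.79%) and 4 lower (15.2%), in the visceral endoderm 2 higher (10.5%) and 6 lower (25.4%), and in the parietal endoderm 2 higher (7.62%) and 6 lower (14.7%). In the anterior streak 1 was higher (5.69%) and 3 lower (11.1%). None was higher in the primitive streak (2.96%), primordial germ cell (6.59%), embryonic mesoderm (6.15%) or ectoplacental cone (7.43%) classes. In those 4 classes, 4, 4, 6 and 7 members were lower, against backgrounds of 12.3%, 16.7%, 15.6% and 27.98%. Sox18, with its few UMIs, is among the lower members in the epiblast, primordial germ cell, embryonic mesoderm and anterior streak classes. It is also among them in visceral endoderm, parietal endoderm and extraembryonic ectoderm. Sox18 is also 1 of the 2 higher members in the haemato-endothelial class. It had 40 UMIs there and 20 in all other nuclei, so it passed the UMI minimum only through that class. The haemato-endothelial count of 2 is therefore not read as an excess over the background, and the lower calls of Sox18 are not read as decreases. Over members with a UMI in the class, Sox1 included, the median log2 fold was -2.27 in visceral endoderm (-0.24 for all genes tested). In the epiblast it was 0.56 (-0.04 for all genes tested), which is the value of Sox3. The epiblast median depends on counting Sox1, which had 5 UMIs there, so it is not read as a raised level of the set.

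Promoter accessibility was given by the peaks overlapping 1000 bp before to 100 bp after a start in the deposited annotation, as counts per 1000000 peak counts of a class (CPM). From the highest to the lowest class it varied less than RNA did for each of the 8 members with at least 50 UMIs. In extraembryonic ectoderm the Sox2 promoter was at 32.4 CPM against 19.3 in all other nuclei, a fold of 1.68 (1.51 to 1.87), and that of Sox21 at 45.1 against 23.7, a fold of 1.90 (1.73 to 2.08), beside an RNA fold of 25.7. The Sox3 promoter was at 9.23 CPM there against 10.7 elsewhere, a fold of 0.865 (0.713 to 1.04), beside an RNA fold of 4.60. In the epiblast the Sox3 promoter was at 17.9 CPM against 8.17, a fold of 2.20 (1.97 to 2.45), a call lost at resolution 2 and with a window of 2000 bp to each side. The Sox2 promoter had a fold of 0.999 there.

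The Sox1 promoter was accessible although its RNA was near 0: 32.7 CPM in the epiblast against 20.4 in all other nuclei, a fold of 1.60 (1.48 to 1.73), and 8.52 CPM in the extraembryonic ectoderm. The SOXC promoters followed their RNA more closely, though not in the haemato-endothelial class. There the Sox4 promoter was at 24.1 CPM, near the 25.4 CPM of the epiblast, but Sox4 RNA, at 133 CPM, was below the epiblast level. The Sox11 promoter was highest there, at 48.8 CPM, with 196 CPM of RNA. The Sox4 promoter was at 29.8 CPM in embryonic mesoderm and 9.65 in extraembryonic ectoderm, a fold of 0.393 there. The Sox11 promoter lay between 39.9 and 48.8 CPM in the 6 classes with at least 196 CPM of its RNA and at 7.85 CPM in extraembryonic ectoderm, a fold of 0.210. These are sums over 2 peaks. The one that overlaps the Sox11 sequence shown, chr12:27342366-27343091, was at 25.9 CPM in the epiblast, 29.6 in embryonic mesoderm and 5.39 in extraembryonic ectoderm.

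Among SOXF genes the Sox7 promoter was at 69.8 CPM in visceral endoderm, a fold of 3.30 (3.07 to 3.55), and at 56.7 in parietal endoderm, a fold of 2.16 (1.91 to 2.44). In the haemato-endothelial class, where Sox7 RNA was 4.72-fold higher, its promoter was at 28.95 CPM, a fold of 1.06 (0.910 to 1.22). The Sox18 promoter there was at 9.29 CPM, a fold of 0.899 (0.687 to 1.16), beside an RNA fold of 38.8. The Sox17 promoter was at 21.6 CPM in the anterior streak, 22.03 in the epiblast, 14.6 in visceral endoderm and 2.63 in extraembryonic ectoderm. Its fold of 1.25 (1.08 to 1.43) in the anterior streak stands beside an RNA fold of 4.70.

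By the same 2-fold rule, 1 of 9 promoters was higher in the epiblast (background 3.64%), in visceral endoderm (4.41%) and in parietal endoderm (3.25%), being Sox3, Sox7 and Sox7. None was higher in the primitive streak (0.751%), primordial germ cell (2.60%), embryonic mesoderm (2.64%), haemato-endothelial (2.82%), anterior streak (2.18%), extraembryonic ectoderm (3.56%) or ectoplacental cone (4.66%) classes. Lower promoters numbered 5 in extraembryonic ectoderm (background 18.8%), 4 in visceral endoderm (20.5%), 9 in the ectoplacental cone (23.1%) and 1, that of Sox3, in the haemato-endothelial class (7.06%). None was lower in the epiblast (5.24%), primitive streak (4.72%), primordial germ cell (8.16%), embryonic mesoderm (5.38%), anterior streak (4.39%) or parietal endoderm (8.18%) classes. The ectoplacental cone calls rest on few counts, from 9 for Sox17 to 47 for Sox21. Only the fold intervals of Sox11 (0.115 to 0.339) and Sox17 (0.0446 to 0.321) there lay wholly past 2-fold. The parietal endoderm count of 0 belongs to the class of 294 nuclei: it was 2 with doublet calls kept (20.8% of all promoters), 3 with RNA clusters (21.01%), and 6 at resolution 0.5, at resolution 2 and with nearby peaks kept (30.95%). Over the 19 clusters, Pearson's r between log2 RNA and promoter levels was 0.92 for Sox11, 0.89 for Sox4, 0.79 for Sox7, 0.63 for Sox2, 0.61 for Sox3 and Sox21, 0.46 for Sox1, 0.09 for Sox17 and 0.06 for Sox18. Spearman's rho was 0.75 for Sox11, 0.80 for Sox4, 0.63 for Sox7, 0.61 for Sox2, 0.71 for Sox3, 0.31 for Sox21, 0.47 for Sox1, -0.29 for Sox17 and -0.10 for Sox18. These values describe 19 points from the same pair of libraries, which share depth and nuclei. Those of Sox1 and Sox18 rest on 10 and 60 UMIs in all and are not compared with the rest.

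**Figure D2:**
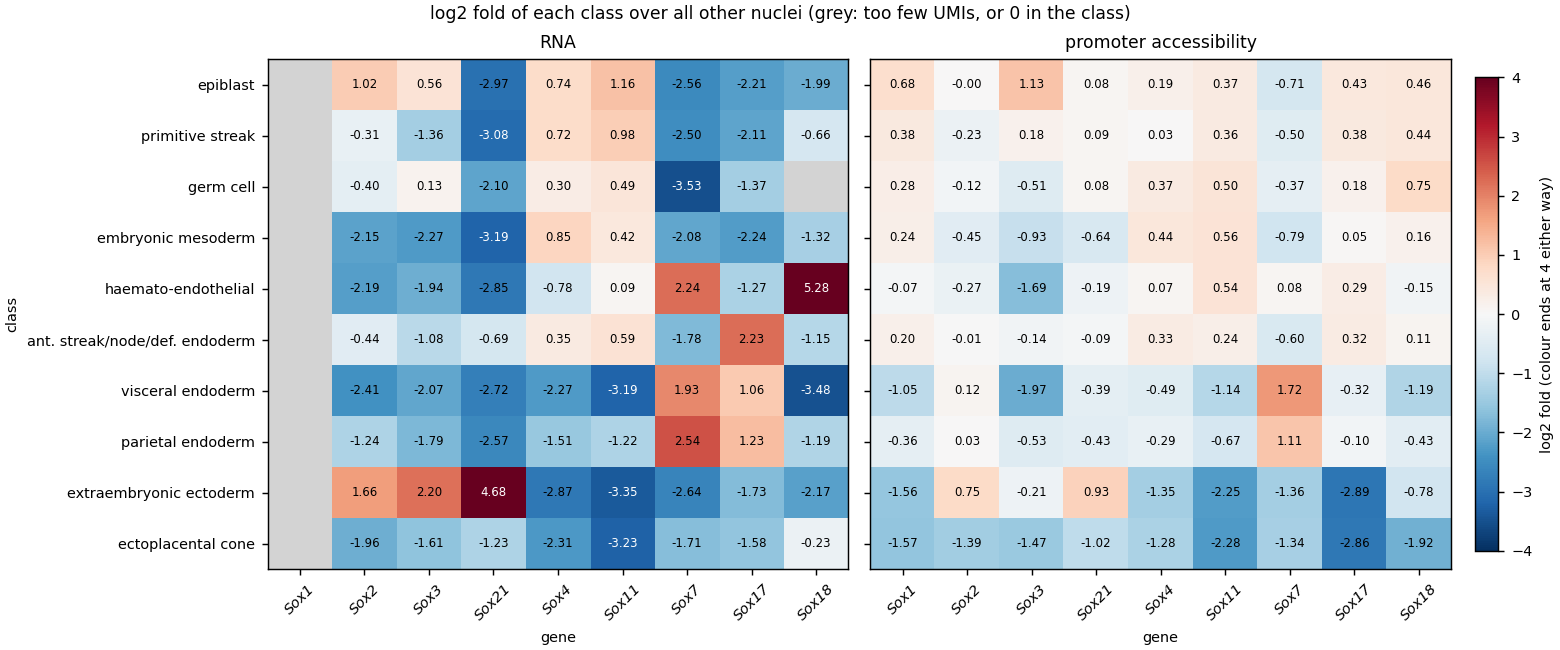
Log2 fold of each class (rows) over all other nuclei for the RNA (left) and the promoter peaks (right) of the 9 genes (columns); blue to red is lower to higher, the colour ends at 4 either way, and grey marks too few UMIs or 0 in the class. The RNA panel holds the stronger colours, as for Sox21 in extraembryonic ectoderm (4.68 for RNA, 0.93 for the promoter).

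For some members, such as Sox21 and Sox17, the largest contrasts between classes lay at peaks away from the promoters. Over all features, too, calls of higher were more common among peaks than promoters, as in extraembryonic ectoderm (11.2% and 3.56%). Positions are in mm10, counted from 1, and distances run from the gene's start to the peak's centre, negative upstream. A peak was called higher or lower at 2-fold with at least 50 counts, which all 174 had.

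Sox21 had the largest contrasts. The peak at chr14:118221455-118222260, 15173 bp downstream of the start, was at 38.9 CPM in extraembryonic ectoderm against 1.08 in all other nuclei, a fold of 36.1 (28.6 to 42.8). The peak at chr14:118253198-118254111, at -16624 bp, was at 28.98 against 0.911 CPM, a fold of 31.8 (24.6 to 38.9), and that at -25623 bp was at 7.39 against 0.402 CPM, a fold of 18.4. In the ectoplacental cone-like class, where Sox21 RNA was 4.57 CPM, the peaks at 15173 and -16624 bp were at 19.4 and 13.97 CPM. In the other 8 named classes the first of these was between 0 and 1.77 CPM. In all, 6 of the 24 Sox21 peaks were higher in extraembryonic ectoderm, where 11.2% of all peaks were, and 6 were lower, where 40.8% were. The peak at 48635 bp was at 4.96 CPM in the anterior streak, the class with the second-highest Sox21 RNA, a log2 fold of 3.60.

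Around Sox2 and Sox3 the picture was otherwise. None of the 25 Sox2 peaks was at least 2-fold higher in extraembryonic ectoderm (11.2% of all peaks) and 15 were lower (40.8% of all peaks), and the largest fold, 1.68, was that of the promoter peak. None of the 12 Sox3 peaks was higher there and 9 were lower, beside the same shares of all peaks; at 11.2%, a count of 0 among 12 is near the background. A peak near Sox2, at chr3:34670917-34671834 and 20970 bp from the start, was at 8.20 CPM in the epiblast and 0.626 in extraembryonic ectoderm. Near Sox3, the peak 5302 bp downstream was at 3.75 CPM in the epiblast and 0.251 in extraembryonic ectoderm. A Sox2 peak at -19448 bp was at 6.31 CPM in embryonic mesoderm and 6.33 in visceral endoderm, classes with low Sox2 RNA, and at 0.548 in the epiblast.

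Outside its promoter, the Sox4 peak at chr13:28941830-28942737, 11430 bp downstream, held the most counts. It was at 43.1 CPM in embryonic mesoderm, 31.8 in the primitive streak, 30.8 in the anterior streak, 11.6 in visceral endoderm and 5.76 in extraembryonic ectoderm. The epiblast, with 324 CPM of Sox4 RNA, had 9.66 CPM at this peak. The peak at 43367 bp was at 8.68 CPM in embryonic mesoderm, a fold of 4.27 (3.37 to 5.26), and 5 of 21 Sox4 peaks were higher in that class, where 10.1% of all peaks were. Peaks higher in classes with low Sox4 RNA were also present: 21881 bp in extraembryonic ectoderm (6.39 CPM) and 35838 bp in the ectoplacental cone (14.8 CPM).

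For Sox11, the peak at chr12:27356912-27357824, -14794 bp from the start, was at 14.03 CPM in the epiblast, 12.5 in the primitive streak and 2.01 in embryonic mesoderm. The peak at 23234 bp had the reverse order among these, 1.74, 7.02 and 12.4 CPM, and was at 14.4 CPM in the anterior streak. Sox11 RNA in the 3 classes was 324, 338 and 237 CPM. Both peaks were low in the visceral endoderm (1.46 and 0.474 CPM) and extraembryonic ectoderm (1.09 and 0.710 CPM).

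Peaks near Sox17 differed in their levels between the anterior streak and the visceral and parietal endoderm. In the anterior streak 3 of the 19 peaks were higher and 6 were lower, beside 8.80% and 15.9% of all peaks. The peak at chr1:4511242-4512030, -14282 bp, was at 7.63 CPM in the anterior streak against 0.720 in all other nuclei, a fold of 10.6 (7.27 to 13.9), and at 0.846 CPM in visceral endoderm. The peak at chr1:4538081-4538922, -41147 bp, was at 30.5 CPM in visceral endoderm, 17.5 in parietal endoderm and 1.31 in the anterior streak. A peak at 21743 bp was at 5.82 CPM in visceral and 10.5 in parietal endoderm, against 0.600 in the anterior streak. Between these, the peak at chr1:4506411-4507281, -9492 bp, was shared: 13.9 CPM in visceral endoderm, 7.85 in the anterior streak and 4.96 in parietal endoderm, and at most 0.548 CPM in the other 7 named classes.

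Near Sox7, the haemato-endothelial and endodermal classes also differed in which peaks were accessible. The peak at chr14:63908339-63909239, -34884 bp, was at 19.2 CPM in the haemato-endothelial class, 3.01 in visceral and 2.21 in parietal endoderm, and that at 14305 bp was at 12.7, 1.02 and 2.32 CPM. The promoter peak centred at -1260 bp had the opposite order, at 9.62, 31.2 and 22.3 CPM. Near Sox18, the peak at chr2:181662986-181663902, 8196 bp downstream, was at 10.3 CPM in the haemato-endothelial class, a fold of 3.77 (2.80 to 4.88). There 2 of the 22 Sox18 peaks were higher, near the 9.36% of all peaks. A Sox18 peak at 24527 bp was at 13.3 CPM in visceral endoderm, where the gene had 1 UMI. The Sox1 peak at -8034 bp was at 21.2 CPM in the haemato-endothelial class and 8.71 in the epiblast. That class had the highest Sox1 CPM on only 2 UMIs. Of the 18 Sox1 peaks, 1 was higher in it, and 10 had their largest fold in the epiblast.

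**Figure D3:**
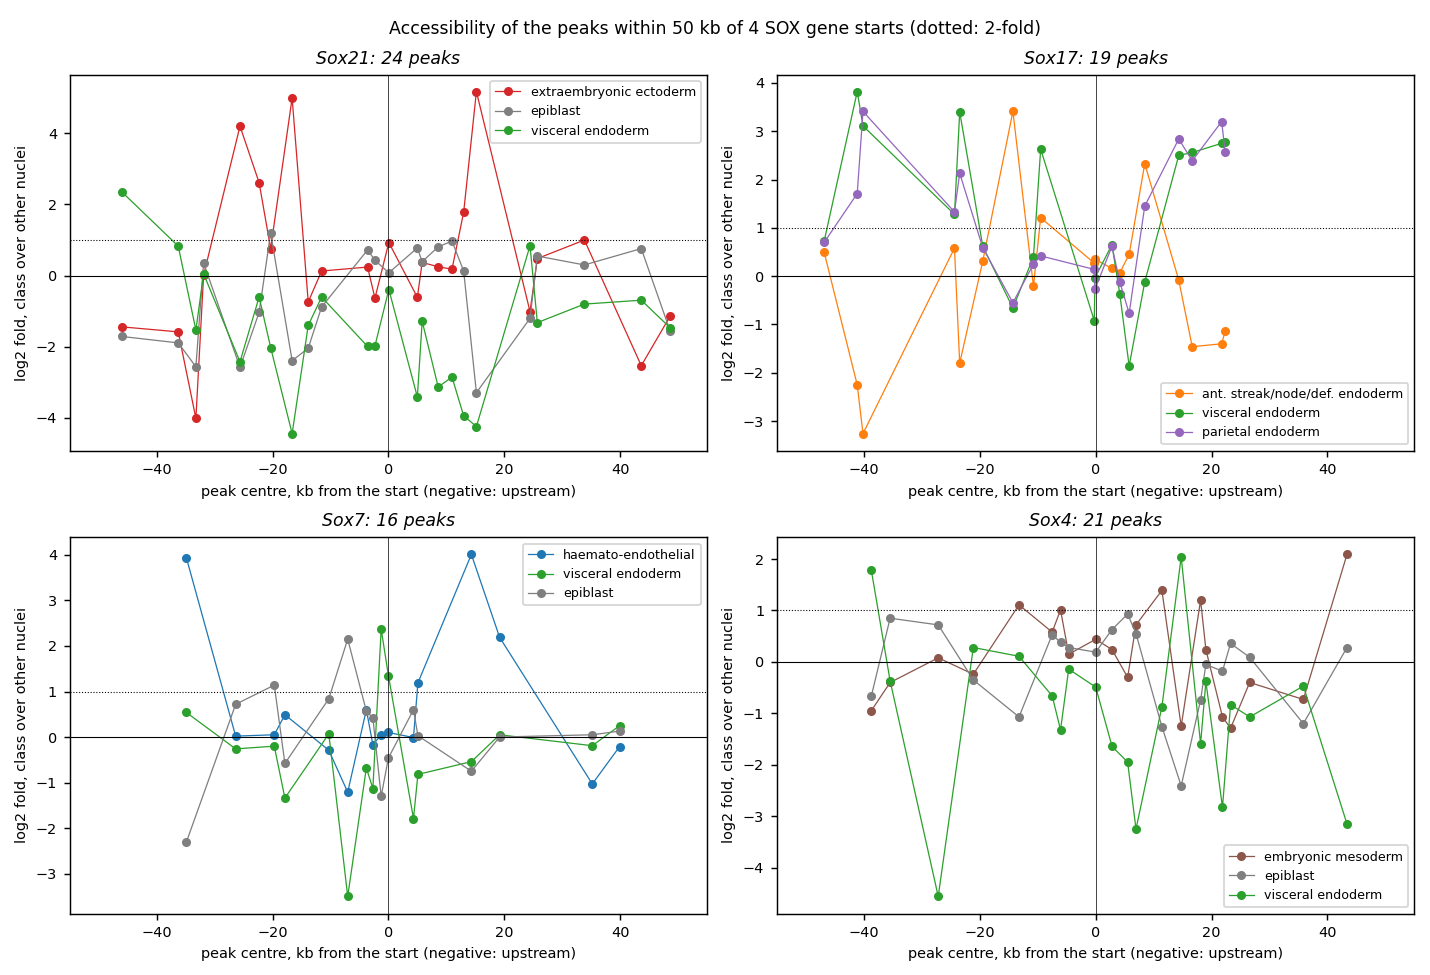
Log2 fold of a class over all other nuclei at each peak within 50 kb of the starts of Sox21, Sox17, Sox7 and Sox4, against the distance of the peak's centre from the start in kb (negative is upstream); lines only join neighbouring peaks, and the dotted line is 2-fold. For Sox21 the extraembryonic ectoderm line reaches 5.17 at 15173 bp, and for Sox17 the anterior streak line reaches 3.41 at -14282 bp where visceral endoderm is at -0.66.

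Over the whole set of 174 peaks, 30 (17.2%) were higher in the epiblast against 9.88% of all peaks, 19 (10.9%) in the anterior streak against 8.80%, and 9 (5.17%) in the primitive streak against 3.49%. In embryonic mesoderm 17 (9.77%) were higher against 10.1%, in visceral endoderm 18 (10.3%) against 12.4%, in parietal endoderm 17 (9.77%) against 10.95%, in the haemato-endothelial class 12 (6.90%) against 9.36%, and in the primordial germ cell class 11 (6.32%) against 9.85%. In extraembryonic ectoderm 8 (4.60%) were higher against 11.2%, and in the ectoplacental cone 12 (6.90%) against 10.4%. Lower peaks numbered 107 in extraembryonic ectoderm (background 40.8%), 109 in the ectoplacental cone (45.5%), 96 in visceral endoderm (41.5%) and 44 in parietal endoderm (23.6%). They numbered 30 in the epiblast (20.2%), 27 in the primitive streak (18.7%), 45 in the primordial germ cell class (31.2%), 26 in embryonic mesoderm (18.8%), 37 in the haemato-endothelial class (24.96%) and 20 in the anterior streak (15.9%). Peaks near 1 gene share its neighbourhood and are not independent.

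Clusters within and beside the classes separated members further. These pairs of clusters were chosen after their values were seen, so their values are descriptions. The RNA clustering left out the SOX genes. Within the anterior streak-like class, 397 nuclei fell in an RNA cluster with Pax7 and Cer1 among its leading genes, and 484 in an unnamed RNA cluster led by genes of cilia such as Zbbx and Cfap44. Sox17 was at 273 CPM (258 to 289) in the former and 14.03 (10.96 to 17.7) in the latter, a fold of 19.5 (15.3 to 25.1). Sox2 had the opposite order, at 10.8 CPM (7.92 to 14.3) and 43.5 (37.9 to 49.6). Sox4 was nearly level, at 292 and 272 CPM, and Sox11 was at 179 and 329 CPM. Sox21 was at 9.86 and 3.95 CPM, a fold of 2.49 (1.44 to 4.47). Of all genes tested between the pair, 2.32% were at least 2-fold higher and 5.82% lower in the Pax7 and Cer1-led nuclei. Median depths were 10282 and 9802 UMIs, and a Sox17 UMI was found in 80.1% and 10.1% of nuclei.

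Of the 8 Sox17 peaks with at least 50 counts in that pair, 2 were higher in the Sox17-rich nuclei and 1 was lower, against 8.76% and 6.57% of all peaks. The peak at -9492 bp was at 17.3 against 1.75 CPM, a fold of 9.92 (4.51 to 20.8), and that at -14282 bp at 12.5 against 4.69, a fold of 2.67 (1.57 to 4.53). The promoter peaks had folds of 1.07 and 0.465.

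The extraembryonic ectoderm-like class held a cluster of 539 nuclei led by Esrrb and Duox2 and one of 911 led by Wnt7b and Irx4. Sox3 was at 111 CPM (104 to 119) in the former and 22.6 (19.9 to 25.5) in the latter, a fold of 4.92 (4.28 to 5.67), whereas Sox2 was at 129 and 101 CPM and Sox21 at 77.9 and 52.9. Between these clusters 2.17% of genes were higher and 0.501% lower. The Sox3 promoter peak was at 13.5 against 5.44 CPM, a fold of 2.48 (1.64 to 3.64), where 11.5% of all peaks were higher. The Sox21 peak at 15173 bp was at 45.4 and 33.2 CPM.

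In the visceral endoderm-like class, Sox4 parted 536 nuclei led by Gcgr and Ltk from 1180 led by Abcb11 and A1cf. It was at 98.1 CPM (91.1 to 105) in the former and 31.1 (28.4 to 34.01) in the latter, a fold of 3.15 (2.81 to 3.54), where 4.75% of genes were higher. Sox7 was at 10.2 and 17.3 CPM and Sox17 at 66.99 and 55.5. A cluster of 464 nuclei that stayed unnamed had Gckr and Fzd5 among its leading genes. Its best-scoring marker list was that of the anterior streak, node and definitive endoderm. It had 391 CPM of Sox4 (376 to 406), the highest of the 19 clusters and 12.6-fold (11.4 to 13.9) the Abcb11-led level. Between this pair 10.7% of genes were higher and 10.6% lower. Sox3 was also higher there, at 17.4 against 4.60 CPM, a fold of 3.77 (2.80 to 5.13), and Sox21 at 4.05 against 1.60, a fold of 2.54 (1.43 to 4.54). Sox7 was at 2.46 CPM, 7.01 times lower, and Sox17 at 110 CPM, a fold of 1.98 that was not called. The anterior streak-like class had 124 CPM of Sox17. The Sox4 peak at 11430 bp was at 40.2 CPM in the unnamed cluster, 28.9 in the Gcgr-led cluster and 3.74 in the Abcb11-led cluster, the same order as the RNA. Of all peaks, 20.8% were higher and 21.3% lower in the unnamed than in the Abcb11-led cluster, and 12.6% and 13.1% in the Gcgr-led cluster. The Sox17 peak at -14282 bp was at 8.46, 2.17 and 0.246 CPM, from 70, 20 and 5 counts.

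**Figure D4:**
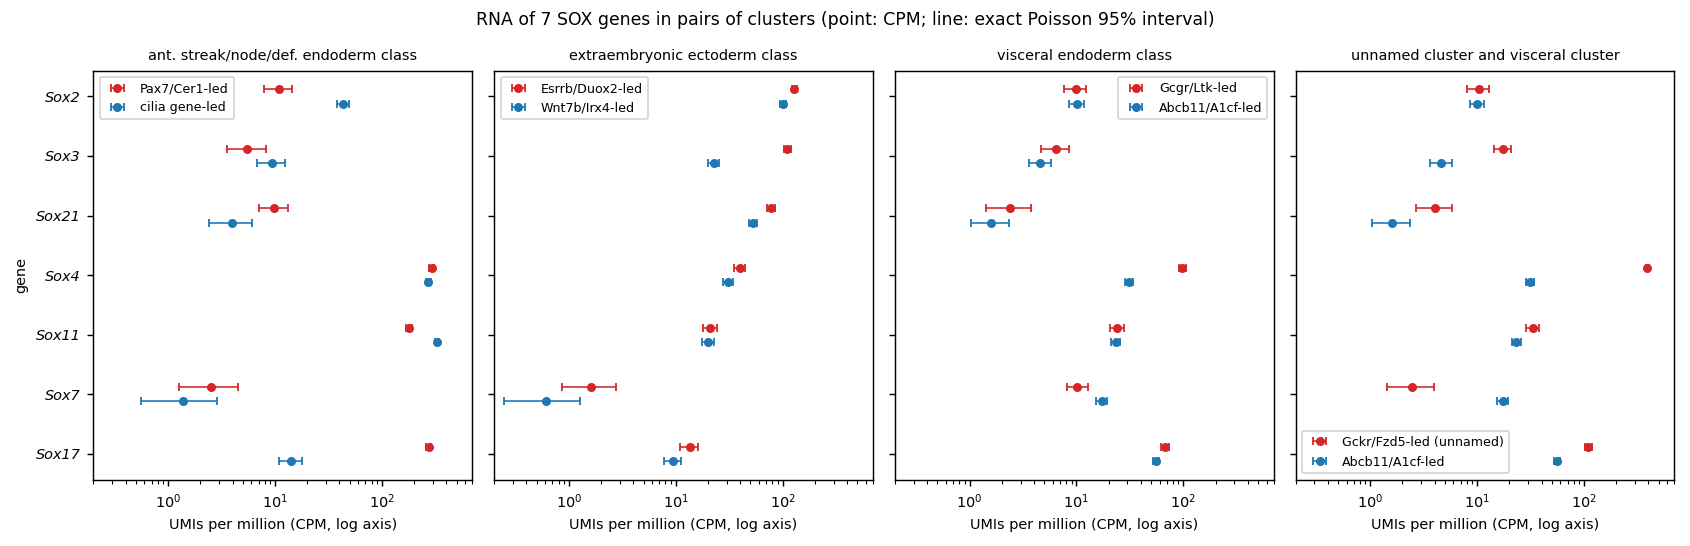
RNA of 7 SOX genes in 4 pairs of clusters, as CPM on a log axis; each point is CPM and each line its exact Poisson 95% interval. Sox17 is separated 19.5-fold in the anterior streak pair, Sox3 4.92-fold in the extraembryonic ectoderm pair, and Sox4 3.15-fold within the visceral endoderm class and 12.6-fold between an unnamed cluster and a visceral endoderm cluster.

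The genes with the most similar pattern, by Pearson's r of log2(CPM + 1) over the 19 clusters, were Pou3f1 (0.965), Cbs and Map6 for Sox2, Mkrn1 (0.853), Hrh1 and Ctnnal1 for Sox3, and Gm1673 (0.964), Rpp21 and Duox2 for Sox21. For Sox4 they were Cyyr1 (0.959), Sema5b and Dbn1, and for Sox11 Nbea (0.989), Lin28b and Kdm7a. For the SOXF genes they were Pag1 (0.936), Bmp6 and Adgra2 for Sox7, 9030622O22Rik (0.943), Plbd1 and Vwce for Sox17, and Lmo2 (0.925), Etv2 and Tal1 for Sox18. Between members r was 0.84 for Sox2 and Sox3, 0.83 for Sox4 and Sox11, and -0.60 for Sox2 and Sox7. The points are clusters of the same libraries, and the values are descriptions. Those of Sox18 rest on 60 UMIs in all.

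Gene lists from the pathways around the members were set beside them. Some of their genes also named the classes (Kdr, Etv2, Tal1, Foxa2, Cer1, Hnf4a, Pou5f1, Esrrb and others), so their levels in those classes are descriptions. In the haemato-endothelial class 13 of 14 endothelial and blood genes were higher (6.79% of all genes) and none lower (15.2%), with a median log2 fold of 3.33 against -0.06 for all genes. Kdr, the VEGF receptor, was at 411 CPM, and Etv2 and Tal1, factors of the first endothelial and blood cells, were at 195 and 85.4. Cdh5, a junction protein of established endothelium, was at 3.78 CPM there and at 62.96 CPM in the ectoplacental cone-like class.

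Of 14 endoderm regulators, 9 were higher and 3 lower in the anterior streak (5.69% and 11.1% of all genes), 5 higher and 4 lower in visceral endoderm (10.5% and 25.4%), and 3 higher and 6 lower in parietal endoderm (7.62% and 14.7%). The 4 lower in visceral endoderm are near the share of all genes. Foxa2, a pioneer factor of endoderm and node, was at 196 CPM in the anterior streak and 34.4 in visceral endoderm. Hnf4a, a regulator of absorptive endoderm, was at 5.12 and 113 CPM. Sox17 was the member above 2-fold in all 3 of these classes.

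Of 12 SOX2 partners and pluripotency factors, 4 were higher and 5 lower in extraembryonic ectoderm (7.01% and 25.3% of all genes), and 3 higher and 3 lower in the epiblast (8.15% and 12.6%). The POU factor gene Pou3f1 was higher in both, at 364 and 274 CPM. Pou5f1, the partner of SOX2 in pluripotent cells, was at 46.1 CPM in extraembryonic ectoderm and 208 in the epiblast, and Esrrb, a trophoblast stem cell factor, was at 168 and 4.45 CPM. Of the 9 tested neural and anterior ectoderm genes, 4 were higher in the epiblast and 2 lower, beside the same epiblast shares. Among the higher genes Pax6 was at 2.02 CPM against 0.414 in all other nuclei and Nes at 23.9 against 9.71. The lower genes were Cdh2, at 99.6 against 356 CPM, and Hesx1, at 1.71 against 3.86.

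Of the other 11 SOX genes listed, 10 passed the minimum of 50 UMIs. Sox9, a SOXE gene, was higher in embryonic mesoderm (16.9 CPM, 3.35-fold) and in the haemato-endothelial class (16.5 CPM, 2.81-fold). Sox6 was 2.05-fold higher in the anterior streak (13.9 CPM), and Sox12, the third SOXC gene, was 2.16-fold higher in the epiblast (30.6 CPM). The other calls of higher rested on 4 to 27 UMIs in the class, at 0.826 to 2.24 CPM: Sox14 in the epiblast, Sox10 in the primitive streak, embryonic mesoderm and haemato-endothelial classes, Sox30 in embryonic mesoderm, Sox8 in the haemato-endothelial class, and Sox15 in both trophoblast classes. In all, 3 of the 10 were higher in embryonic mesoderm (6.15% of all genes) and in the haemato-endothelial class (6.79%), 2 in the epiblast (8.15%), and 1 each in the primitive streak (2.96%), anterior streak (5.69%), extraembryonic ectoderm (7.01%) and ectoplacental cone (7.43%). None was higher in the primordial germ cell class (6.59%). None of the 10 was higher in visceral endoderm (10.5% of all genes) or parietal endoderm (7.62%), counts near the background. In each, 5 were lower (25.4% and 14.7% of all genes), but in parietal endoderm Sox10, Sox14, Sox15 and Sox30 had at most 1 UMI. In extraembryonic ectoderm 5 were lower (25.3%) and in the ectoplacental cone 6 (27.98%). Lower genes numbered 3 in the primordial germ cell (16.7%) and haemato-endothelial (15.2%) classes and 2 in the primitive streak (12.3%). They numbered 1 in the epiblast (12.6%) and anterior streak (11.1%) and 0 in embryonic mesoderm (15.6%). The lower genes of the primordial germ cell class, Sox8, Sox10 and Sox15, had 0 UMIs in it. Those of the haemato-endothelial class, Sox14, Sox15 and Sox30, had at most 1 UMI. The same held for Sox10, Sox14 and Sox30 in the ectoplacental cone and for Sox8 in the primitive streak. Calls on so few UMIs are not read as decreases.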

How the data were processed

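Nuclear RNA and accessibility of 1 pool of nuclei (2 samples, 1 library each) were analysed. The values are counts of UMIs per gene and of accessibility counts per peak, which the authors deposited in 1 matrix made with Cell Ranger ARC 2.0.0 on mm10, per the submitters' processing notes. Of the nonzero peak counts 86.6% were even, so intervals for peaks used counts divided by 2 and rounded up.

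Kept nuclei had 1000 or more UMIs, 1000 or more peak counts, 500 or more genes and a mitochondrial share of 20% or less, and 1100 doublet calls were removed. Peak counts were TF-IDF weighted and reduced to 30 components with the first dropped, and clustered with the Leiden method (15 neighbours, resolution 1, seed 0; scanpy 1.11.5, leidenalg 0.10.2). Clusters were named from fixed marker lists. Calls needed 2-fold and at least 50 counts. The calling code was run on simulated counts whose changed genes differed by more than 2-fold, which does not test calls near 2-fold.

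The genes named are the members, 5 lists, and for each member the 3 genes with the highest Pearson correlation over clusters of at least 100 nuclei among genes with at least 500 UMIs. Peaks named were to be each member's promoter peaks, the 3 other peaks with most counts and the peak with the largest fold in the class of highest RNA; further peaks and the pairs of clusters were chosen after their values were seen. Members and lists were chosen with earlier results of these data known. The strand setting of the counting is not given in the sources used here, so reads of Sox2 and Sox2ot may not be fully separated. The alternatives changed doublet removal, depth, resolution, the assay defining classes, windows and count minimums.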

Additional observations from a re-analysis of the deposited data

How the results depend on the processing

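Of the 677 values recomputed under 12 alternative settings, 274 counts stayed near the main count and 34 moved. Of the remaining values, folds and shares of nuclei, 325 stayed within the main interval and 44 moved out of it. A reversal could be called only for folds of at least 2-fold either way in the main setting, and none of these reversed. No paired analysis was possible because there is 1 library per assay, and no replicate could be left out. Members higher in RNA in the epiblast numbered 2 and became 1 with doublet calls kept, with the filter of 2000 UMIs and 2000 peak counts, at resolution 0.5, with RNA clusters and with nearby peaks kept, and 0 at resolution 2. In visceral endoderm 2 became 1 with doublet calls kept and at resolution 0.5, and in the ectoplacental cone 0 became 1 with doublet calls kept. Promoters higher in the epiblast went from 1 to 0 at resolution 2 and with a window of 2000 bp to each side. Lower promoters went from 0 to 1 in embryonic mesoderm at resolution 2, from 1 to 0 in the haemato-endothelial class with the 2000 bp window, from 4 to 1 in visceral endoderm and from 5 to 3 in extraembryonic ectoderm with doublet calls kept. In parietal endoderm 0 became 2 with doublet calls kept, 3 with RNA clusters and 6 at resolution 0.5, resolution 2 and with nearby peaks kept, where that class was smaller and 20.8%, 21.01% and 30.95% of all promoters were lower, in place of 8.18%. Of the 106 peaks within 20000 bp, in place of 174, and beside the all-peak shares of the report, the higher peaks were 17 in epiblast, 5 in primitive streak, 7 in primordial germ cell, 9 in embryonic mesoderm, 7 in haemato-endothelial, 9 in anterior streak, 8 in visceral endoderm, 5 in parietal endoderm, 3 in extraembryonic ectoderm and 4 in the ectoplacental cone. Primordial germ cell peaks were 17 with RNA clusters, ectoplacental cone peaks 7 with doublet calls kept, and with at least 200 counts the anterior streak had 12 and the ectoplacental cone 7. Except where a setting counts fewer features or nuclei, the cause was not tested. Shares over all features were recomputed by setting only for the parietal endoderm promoters. The other changes in counts are therefore not read as changes particular to the members. Primordial germ cell-like nuclei formed no class with doublet calls kept or at resolution 0.5, and primitive streak-like nuclei formed none with RNA clusters. The anterior streak Sox17 log2 fold was 2.23 and 3.40 with RNA clusters. With 1 pool, depth limits Sox1 (10 UMIs) and Sox18 (60 UMIs) most.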
